A study of Mus musculus with 3 samples.

Results

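In mouse liver cells, 8 genes of the neurotrophic factor system were followed, namely 3 ligands (Ntf3, Gdnf and Artn) and 5 receptors (Ntrk2, Ntrk3, Ngfr, Sort1 and Gfra1). They were taken by symbol from the 55357 genes of the count matrices, all 8 were found, and no measured value entered the choice. Bdnf, the neurotrophin that the study is about, is given beside them where both were counted in the same cells.

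Single-cell RNA sequencing libraries had been made from perfused livers of wild-type male C57BL/6J mice, with hepatocytes and nonparenchymal cells mixed in equal parts. Each of the 3 libraries pooled 2 mice that were 8 weeks old when the study began. CON was the untreated control, HFD came from mice fed 60% of their calories as fat for 4 months, and CCL4 came from mice kept on chow for 3 months and then injected intraperitoneally with 0.1 mL of 10% carbon tetrachloride (CCl4), a hepatocyte toxin, 2 times per week for 4 weeks. There was 1 library per condition, so condition and library cannot be told apart, no test across samples was possible, and no p-value is given.

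Neurotrophic factors are secreted proteins best known for keeping neurons alive. The neurotrophins, among them BDNF and NT-3 (encoded by Ntf3), signal through the Trk tyrosine kinases. TrkB (Ntrk2) is the main receptor of BDNF, TrkC (Ntrk3) that of NT-3, and the p75 receptor (Ngfr) binds all mature neurotrophins and, together with sortilin (Sort1), their uncleaved precursors. GDNF and artemin (Artn) belong to another family, in which a ligand is caught by a lipid-anchored GFR alpha coreceptor and the pair activates the kinase RET. GFR alpha 1 (Gfra1) is the coreceptor that GDNF prefers. In liver, sortilin is also known as a sorting receptor of the secretory and lysosomal route that handles lipoproteins, and p75 and the Trk receptors are known from stellate cells and nerve endings.

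Counts are unique molecular identifiers (UMIs), each standing for 1 captured RNA molecule. They were summed over the cells of a class in a library and expressed as CPM (UMIs per 1000000 UMIs of that class) with an exact Poisson 95% interval, and the share of cells with a UMI is given. Every interval, those of ratios included, covers counting error only and not differences between mice or preparations. The 3′ libraries were counted per gene, so full-length kinase forms and truncated forms of Ntrk2 and Ntrk3 were not separated. CPM of a gene can be compared between cell classes, while CPM of different genes also depends on their capture, which was not measured.

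The libraries held 11245 (CON), 12984 (HFD) and 12761 (CCL4) barcodes with 49613255, 34985786 and 34061186 UMIs. The median barcode had 2939, 2336 and 2173 UMIs. Pairs of libraries shared 36 to 52 barcode sequences, at most 0.436% of a library. After filtering, 36946 cells fell into 38 clusters, of which 36 were given the name of 1 of 16 cell classes from their marker genes ("hepatocyte-like" and so on). No cluster was named after stellate cells, Schwann cells, mesothelium or platelets. The 6 hepatocyte-like clusters were named with 3 to 6 of 12 hepatocyte markers raised above other cells, and 0 or 1 of them among the 10 leading genes. Free hepatocyte RNA was abundant: the T cell-like cells, which should lack albumin, had 4307, 18604 and 37460 CPM of Alb in CON, HFD and CCL4. Members were therefore read against T cell-like cells of the same library. Hepatocyte-like cells were also split by cluster into a mitochondria-rich set (clusters with a median of at least 2% mitochondrial UMIs, 1534, 1179 and 2993 cells) and a mitochondria-poor set (3428, 5210 and 4042 cells). The mitochondria-poor set had little of the nuclear RNA Malat1 (258, 228 and 737 CPM against 2698, 2165 and 4583 CPM), and its Alb was only 1.65, 1.15 and 1.11 times that of the T cell-like cells, so its levels are close to the background of HFD and CCL4. Nearly every hepatocyte-like and T cell-like cluster came from a single library.

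Over all barcodes, the members differed widely in how many molecules were caught. Gfra1 had 8293 UMIs, Sort1 642, Ntrk2 266, Ntrk3 158 and Ntf3 142, which allowed comparisons. Ngfr with 19, Artn with 11 and Gdnf with 4 UMIs in 36990 barcodes had too few for any comparison between classes, or between libraries within a class. The location of their UMIs is given, with ratios between libraries over all cells for Ngfr and Artn. Of these 8 genes, 4 (Ntrk2, Ntrk3, Sort1 and Gfra1) overlap other annotated genes, each of which had 0 to 7 UMIs in a library. Bdnf had 379 UMIs for comparison.

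Positions follow the GENCODE M21 annotation of GRCm38, and the sources used here do not settle whether counting was done on this build. The ligand genes were Ntf3 (ENSMUSG00000049107, chromosome 6, 126101412 to 126166910, minus strand), Gdnf (ENSMUSG00000022144, chromosome 15, 7810846 to 7837575, plus strand) and Artn (ENSMUSG00000028539, chromosome 4, 117926162 to 117929763, minus strand). The Trk genes were Ntrk2 (ENSMUSG00000055254, chromosome 13, 58806569 to 59133970, plus strand) and Ntrk3 (ENSMUSG00000059146, chromosome 7, 78175959 to 78738012, minus strand), with 10 and 20 annotated transcripts. The other receptor genes were Ngfr (ENSMUSG00000000120, chromosome 11, 95568818 to 95587735, minus strand), Sort1 (ENSMUSG00000068747, chromosome 3, 108284082 to 108361511, plus strand) and Gfra1 (ENSMUSG00000025089, chromosome 19, 58235604 to 58455909, minus strand).

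Ntf3, which encodes NT-3, was counted mainly in the control library, and its highest level was in smooth muscle cell-like cells. In CON these 53 cells, led by Acta2, Myh11 and Tagln and positive for 10 of 10 smooth muscle markers, held 29 Ntf3 UMIs, 106 CPM (71.0 to 152), in 18 cells (34.0%). The T cell-like cells of the same library held 1 UMI, 0.158 CPM (0.00399 to 0.878). The 23 fibroblast-like cells of CON came next at 32.8 CPM (6.77 to 95.9), from 3 UMIs. Smooth muscle cell-like cells were 3.23 times above them, with an interval of 1.00 to 16.6 that began at 1. Endothelial cell-like cells had 12 UMIs and 16.2 CPM (8.37 to 28.3), and smooth muscle cell-like cells were 6.54 times above them (3.24 to 14.1). The smooth muscle cell-like cells thus carried 24.2% of the library's Ntf3 UMIs while making up 0.473% of its cells.

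Hepatocyte-like cells of the control library held 65 Ntf3 UMIs at a low level, 2.36 CPM (1.82 to 3.01), above the T cell-like cells, whose interval ended at 0.878. The level was 3.16 CPM (2.28 to 4.25) in the mitochondria-rich set and 1.58 CPM (0.992 to 2.40) in the mitochondria-poor set. The 65 UMIs lay in 63 of 4962 cells. At so low a level this count cannot show whether many cells or a small group expressed the gene. In HFD the hepatocyte-like cells held 4 UMIs, 0.233 CPM (0.0634 to 0.595), beside 0.195 CPM in T cell-like cells, with too few UMIs to compare. In CCL4 they held 0 UMIs among 20483194, which allows up to 0.146 CPM. The ratio of HFD to CON was 0.0985 (0.0260 to 0.264). CCL4 was at least 16.1-fold lower than CON when the 0 is set to 3 counts.

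Outside hepatocyte-like cells Ntf3 was also lower, with 55 UMIs (2.50 CPM) in CON, 13 (0.731 CPM) in HFD and 5 (0.369 CPM) in CCL4, and ratios to CON of 0.293 (0.147 to 0.542) and 0.147 (0.0461 to 0.365). The classes with the highest level were also unevenly sampled, since HFD had 10 smooth muscle cell-like cells and CCL4 had 18, each with 1 Ntf3 UMI. Within endothelial cell-like cells the levels were 16.2, 7.19 and 5.41 CPM, and the ratios to CON, 0.444 (0.148 to 1.22) for HFD and 0.334 (0.0605 to 1.24) for CCL4, had intervals that held 1. Within smooth muscle cell-like cells the ratios to CON were 0.303 (0.00741 to 1.83) for HFD and 0.198 (0.00485 to 1.19) for CCL4, and these intervals also held 1. The ratio over all cells outside the hepatocyte-like class thus lay below 1 in both libraries, with a mix of classes that differed, and within the smooth muscle cell-like and endothelial cell-like classes no difference was detectable at this depth.

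**Figure D1:**
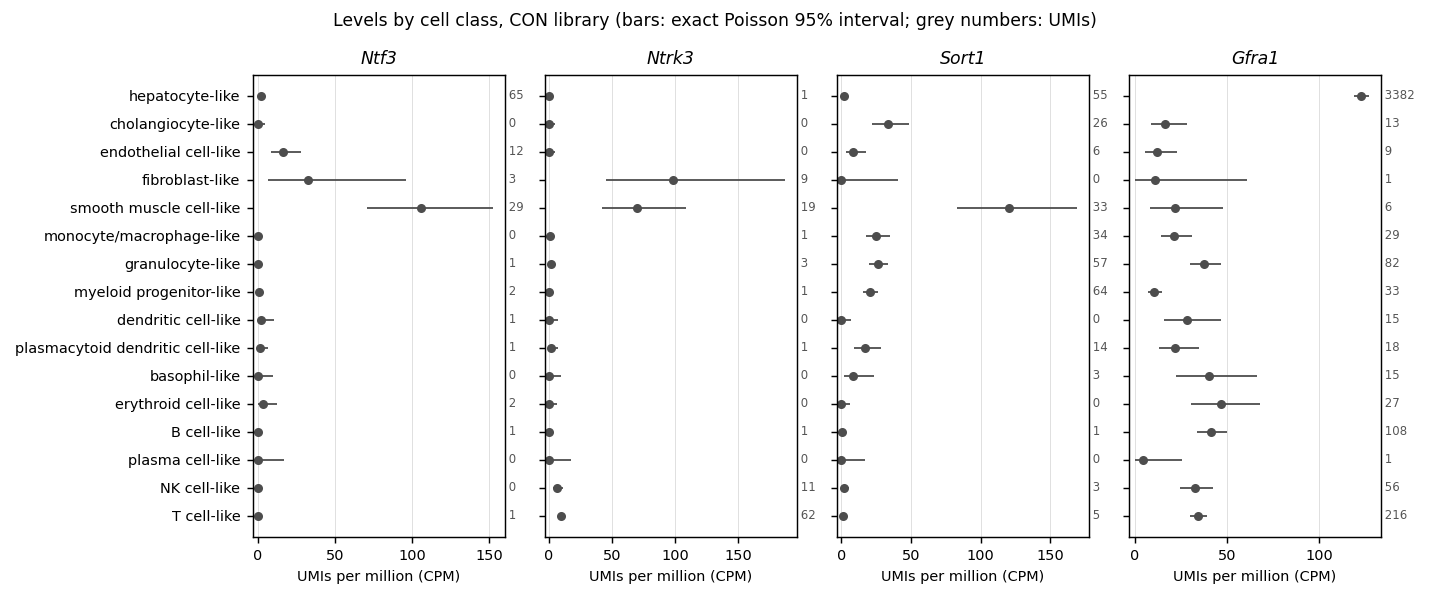
CPM of Ntf3, Ntrk3, Sort1 and Gfra1 in the 16 named cell classes of the CON library, as points with exact Poisson 95% intervals, and with the UMIs of each class in grey at the right of each panel. Ntf3 and Sort1 are highest in smooth muscle cell-like cells, at 106 and 121 CPM, Ntrk3 is high in fibroblast-like and smooth muscle cell-like cells, at 98.5 and 69.4 CPM, with a lower level in T cell-like cells, and Gfra1 is highest in hepatocyte-like cells at 123 CPM.

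Artn, which encodes artemin, a ligand that prefers the coreceptor GFR alpha 3, had 8 UMIs in CON, 0 in HFD and 3 in CCL4. Over all cells its ratio of CCL4 to CON was 0.545 (0.0932 to 2.27), which held 1. In CON 4 of the 8 lay in 3 smooth muscle cell-like cells, 2 in cholangiocyte-like cells and 2 in hepatocyte-like cells. In CCL4 2 of the 3 lay in cholangiocyte-like cells and 1 in a B cell-like cell. Gdnf, which encodes the founding member of the GDNF family, had 1 UMI in a smooth muscle cell-like cell of CON and 3 in HFD, each in a different monocyte/macrophage-like cell. All 3 of those cells were in the cluster led by Treml4, Ear2, Cd300e and Ace. Hepatocyte-like cells held 0 Gdnf UMIs in all 3 libraries, 0 of 4962, 0 of 6389 and 0 of 7035 cells, which allows shares of cells with a UMI of up to 0.0605%, 0.0470% and 0.0426% and sets no limit on cells that express the gene. At these counts neither ligand can be called present or absent in a class.

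Ntrk2, the gene of the BDNF receptor TrkB, was the member with the widest difference between libraries. It had 9 UMIs in CON, 14 in HFD and 243 in CCL4 over all barcodes. In the mitochondria-rich hepatocyte-like set the level was 0.0734 CPM (0.00186 to 0.409) in CON from 1 UMI, 0.645 CPM (0.133 to 1.89) in HFD from 3 UMIs and 11.7 CPM (9.81 to 13.8) in CCL4 from 136 UMIs. The CCL4 interval lay far above both others, which overlapped. The ratio of CCL4 to CON was 159 with an interval of 28.1 to 6336, wide because the control side holds a single UMI, and the ratio of CCL4 to HFD was 18.1 (6.07 to 88.9). Over all hepatocyte-like cells the ratios were 125 (34.1 to 1039) and 39.1 (14.9997 to 145).

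The Ntrk2 UMIs of CCL4 were spread thinly over many cells. They lay in 114 of 2993 mitochondria-rich hepatocyte-like cells (3.81%), with at most 4 in a cell. T cell-like cells of CCL4, which hold free RNA, had a UMI in 18 of 2004 cells (0.898%) and a level of 4.10 CPM (2.43 to 6.48). Their median depth was 2019 UMIs against 3345. After thinning every cell to 1000 UMIs the shares were 1.13% and 0.414%. The mitochondria-rich set was 2.85 times above T cell-like cells (1.74 to 4.95), and Alb was 1.78 times higher in the same cells. The mitochondria-poor set, at 5.65 CPM (4.20 to 7.45), had a ratio to T cell-like cells of 1.38 (0.790 to 2.51), which held 1. T cell-like cells themselves had 18 UMIs in CCL4 and 1 each in CON and HFD, so the background of this gene also differed between libraries, with a ratio of CCL4 to CON of 26.0 (4.11 to 1084).

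Among the other CCL4 classes with 10 or more UMIs together with T cell-like cells, endothelial cell-like cells stood above the background. They had 8 UMIs in 167 cells, 14.4 CPM (6.23 to 28.4), 3.52 times the T cell-like level (1.32 to 8.50), and could not be separated from mitochondria-rich hepatocyte-like cells (ratio 1.23, 0.522 to 2.50). Their Alb was 1.32 times that of T cell-like cells, and its part in this value was not tested. The other 13 classes had intervals that held 1. Within the mitochondria-rich set, 129 CCL4 cells of the cluster led by Cyp1a2, Slc1a2 and Glul had 28.2 CPM (15.8 to 46.5) and 2864 cells of the cluster led by G6pc and Cyp2b9 had 10.9 CPM (9.04 to 13.0). The cluster led by Cyp1a2 also held 1165 HFD cells, which mainly set its leading genes. In CON, 4 of the 9 Ntrk2 UMIs lay in smooth muscle cell-like cells (14.6 CPM, 3.98 to 37.4), and in HFD 4 of the 14 lay in fibroblast-like and 3 in cholangiocyte-like cells. The antisense and other genes annotated across Ntrk2 had 2 UMIs in all, both in CCL4.

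Bdnf, the ligand of TrkB, had 2.42 CPM (1.67 to 3.401) in the mitochondria-rich set of CON, 11.8 CPM (8.91 to 15.4) in HFD and 4.38 CPM (3.26 to 5.76) in CCL4. T cell-like cells had 0.315, 3.71 and 1.59 CPM of Bdnf, and the mitochondria-rich set was 7.68 (1.96 to 66.1), 3.19 (1.86 to 5.68) and 2.75 (1.24 to 7.18) times above them. Cholangiocyte-like cells had 23.0, 14.5 and 26.3 CPM of Bdnf in CON, HFD and CCL4, from 18, 9 and 18 UMIs. In CON and CCL4 these values lay above the interval of the mitochondria-rich set. In HFD the 14.5 CPM, from 9 UMIs, lay within its interval of 8.91 to 15.4. No ratio between the classes was taken, so no order is given for HFD. The ratio of HFD to CON was 4.89 (3.12 to 7.77) in the mitochondria-rich set and 11.8 (2.84 to 104) in T cell-like cells. In the mitochondria-rich set Bdnf was thus highest in HFD and Ntrk2 in CCL4. Among the 7035 hepatocyte-like cells of CCL4, 164 held Ntrk2, 72 held Bdnf and 2 held both. With so few positive cells, this overlap cannot show whether the 2 genes lie in the same or in separate cells.

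**Figure D2:**
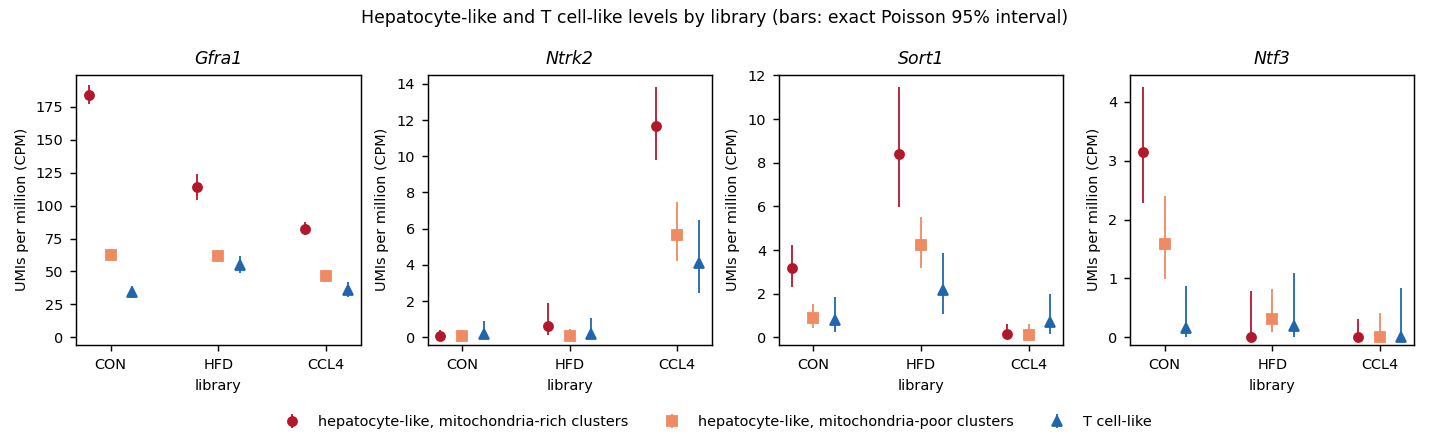
CPM of Gfra1, Ntrk2, Sort1 and Ntf3 in mitochondria-rich (circles) and mitochondria-poor (squares) hepatocyte-like clusters and in T cell-like cells (triangles) of the 3 libraries, with exact Poisson 95% intervals. In the mitochondria-rich clusters Gfra1 is at 184 CPM in CON, 114 in HFD and 82.5 in CCL4, Ntrk2 is seen in CCL4 at 11.7 CPM, Sort1 is highest in HFD at 8.39 CPM, and Ntf3 is seen in CON at 3.16 CPM.

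Ntrk3, which encodes the NT-3 receptor TrkC, had almost no UMIs in hepatocyte-like cells. They held 1, 0 and 2 UMIs in CON, HFD and CCL4, although these cells made up 44.3%, 49.2% and 55.1% of the cells. In CON the highest levels were 98.5 CPM (45.0 to 187) in 23 fibroblast-like cells, from 9 UMIs of which 4 came from a single cell, and 69.4 CPM (41.8 to 108) in 53 smooth muscle cell-like cells, from 19 UMIs in 17 cells. The 2 levels could not be told apart (ratio 1.42, 0.565 to 3.29). In HFD the 136 fibroblast-like cells had 2 UMIs and 4.58 CPM, with a ratio to CON of 0.0466 (0.00490 to 0.225). The fibroblast-like cluster was led by Col3a1, Col1a1 and Col1a2 and also by the mesothelial genes Upk3b and Wt1, and whether its makeup differed between libraries was not tested.

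T cell-like cells are not a background for Ntrk3, since they carried 56.4%, 77.8% and 75% of its UMIs in CON, HFD and CCL4. Their level was 9.77 CPM (7.49 to 12.5) in CON, 4.10 CPM (2.54 to 6.27) in HFD and 3.42 CPM (1.91 to 5.64) in CCL4. B cell-like cells of CON had 1 UMI and 0.383 CPM, and T cell-like cells were 25.5 times above them (4.41 to 1023). The same ratio was 3.82 (0.934 to 33.6) in HFD, which held 1, and 7.70 (1.18 to 324) in CCL4. NK cell-like cells of CON had 11 UMIs and 6.42 CPM (3.21 to 11.5), which did not differ from T cell-like cells beyond counting error (ratio 1.52, 0.794 to 3.20). Among the T cell-like clusters of CON, the cluster led by Lef1, Dapl1, Tcf7 and Il7r, genes of naive and memory T cells, had 19.0 CPM (13.1 to 26.5). The cluster led by Gzmk, Pdcd1 and Tox had 7.57 CPM (4.33 to 12.3) and the cluster led by Trgc4, Cd160 and Klrb1b had 5.01 CPM (2.59 to 8.75). The share of cells with a UMI was 5.09%, 2.23% and 1.17% in these clusters. The ratios of HFD and CCL4 to CON in T cell-like cells were 0.420 (0.243 to 0.699) and 0.350 (0.185 to 0.622), between sets made up of different clusters.

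NT-3 and its receptor were counted in the same class of cells. In the 53 smooth muscle cell-like cells of CON, 18 held Ntf3, 17 held Ntrk3 and 3 held both, while no other cell of the 3 libraries held both. Sort1 was found in 27 of them, 10 together with Ntf3 and 10 together with Ntrk3. The overlap that independent detection would give was not computed, so these counts do not show that the genes go together in single cells.

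Ngfr, the gene of the p75 receptor, had 12, 6 and 1 UMIs in CON, HFD and CCL4. In CON 7 of the 12 lay in 6 of 156 endothelial cell-like cells, 9.44 CPM (3.80 to 19.5), and the other 5 lay singly in 5 further classes. In HFD 2 lay in fibroblast-like cells, 2 in monocyte/macrophage-like cells and 1 each in B cell-like and dendritic cell-like cells. No endothelial cell-like cell of HFD or CCL4 held a UMI. T cell-like cells had 0 UMIs in all 3 libraries, and hepatocyte-like cells had 1, in CON. Ngfr could not be compared between libraries within a class at these counts. Over all cells, with a mix of classes that differed, the ratio of HFD to CON was 0.708 (0.218 to 2.04), which held 1. That of CCL4 to CON was 0.121 (0.00284 to 0.819), from 1 UMI in CCL4.

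Sort1, which encodes sortilin, had its highest level in CON in smooth muscle cell-like cells. It ranged from 121 CPM (83.0 to 169) in smooth muscle cell-like cells, where 27 of 53 cells (50.9%) held a UMI, to 0.788 CPM (0.256 to 1.84) in T cell-like cells and 0.383 CPM from 1 UMI in B cell-like cells. Dendritic cell-like, erythroid cell-like, fibroblast-like and plasma cell-like cells of CON held 0 UMIs in 109, 207, 23 and 26 cells. These counts allow up to 5.65, 5.17, 32.8 and 13.9 CPM, so these classes are not ranked below the others. Below smooth muscle cell-like cells came cholangiocyte-like cells at 33.2 CPM (21.7 to 48.7), granulocyte-like cells at 26.1 CPM (19.8 to 33.8), monocyte/macrophage-like cells at 25.2 CPM (17.5 to 35.2), myeloid progenitor-like cells at 20.4 CPM (15.7 to 26.1) and plasmacytoid dendritic cell-like cells at 17.1 CPM (9.37 to 28.8). Smooth muscle cell-like cells were 3.63 times above cholangiocyte-like cells (2.10 to 6.31). Neighbours further down this order did not differ beyond counting error, with ratios of 1.27 (0.769 to 2.06), 1.04 (0.665 to 1.63), 1.23 (0.789 to 1.90) and 1.19 (0.661 to 2.30). Endothelial cell-like cells had 8.10 CPM (2.97 to 17.6), basophil-like cells had 8.02 CPM from 3 UMIs, and hepatocyte-like cells had 2.00 CPM (1.51 to 2.60). In HFD, 136 fibroblast-like cells held 7 UMIs, 16.0 CPM (6.45 to 33.1).

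Within the granulocyte-like class of CON, Sort1 differed between clusters. The granulocyte-like cluster led by Camp, Ngp and Ltf, granule genes of immature neutrophils, had 49.7 CPM (34.4 to 69.4) and a UMI in 19.7% of 147 cells in CON. The clusters led by genes of mature neutrophils, such as Cxcr2, Retnlg and Csf3r, had 17.6 CPM (10.6 to 27.4) and 9.53 CPM (2.60 to 24.4). In HFD no such difference was detectable, with 14.95 CPM (4.07 to 38.3) from 4 UMIs in the cluster led by Camp and 14.3 CPM (6.54 to 27.1) from 9 UMIs in the cluster led by Stfa2l1, which also had Retnlg and Cxcr2 among its leading genes. The cluster led by the Kupffer cell genes C1qa, Cd5l, Clec4f and Vsig4 had 28.3 CPM (19.3 to 40.2) in CON. In HFD, the monocyte cluster led by Vcan, Lyz2 and F13a1 had 23.2 CPM (17.2 to 30.6) and that led by Treml4, Ear2 and Ace had 14.9 CPM (9.75 to 21.9), with intervals that overlapped.

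Outside hepatocyte-like cells the level was 11.2 CPM (9.87 to 12.7) in CON, 10.9 CPM (9.43 to 12.6) in HFD and 3.76 CPM (2.80 to 4.94) in CCL4, with ratios to CON of 0.972 (0.801 to 1.18) and 0.335 (0.243 to 0.454). The mix of classes differed, since CCL4 had 91 granulocyte-like, 29 myeloid progenitor-like and 18 smooth muscle cell-like cells where CON had 616, 343 and 53. Within classes, cholangiocyte-like cells were at 33.2, 54.7 and 30.7 CPM, and the ratios to CON of 1.65 (0.959 to 2.86) and 0.922 (0.493 to 1.70) held 1. Plasmacytoid dendritic cell-like cells were at 17.1, 15.002 and 20.9 CPM. Monocyte/macrophage-like cells were at 25.2, 18.7 and 8.87 CPM, and the ratio of CCL4 to CON was 0.352 (0.121 to 0.848), with 251 of the 302 CON cells in the cluster led by C1qa and 221 of the 262 CCL4 cells in the cluster led by Vcan. With each library clustered on its own, the level was 8.54 CPM (1.76 to 24.9) in CON and 5.21 CPM (1.91 to 11.3) in CCL4, with intervals that overlapped.

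**Figure D3:**
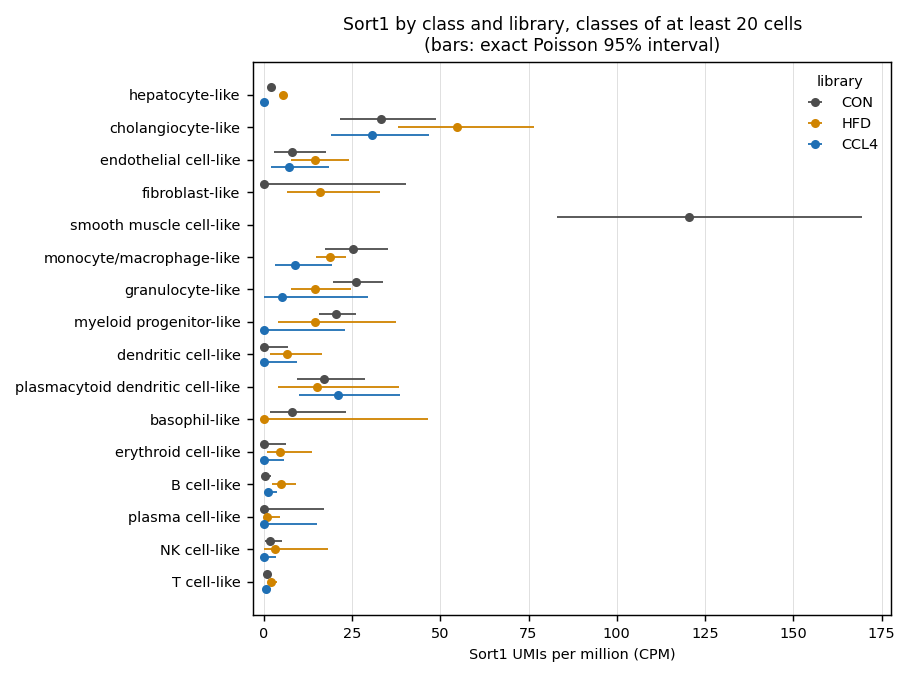
Sort1 CPM by cell class in the CON, HFD and CCL4 libraries, with exact Poisson 95% intervals, for classes of at least 20 cells. Cholangiocyte-like cells stay between 30.7 and 54.7 CPM in the 3 libraries, while hepatocyte-like cells are at 2.00, 5.35 and 0.146 CPM.

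In hepatocyte-like cells Sort1 was low, higher in HFD than in CON, and lowest in CCL4. The mitochondria-rich set had 43 UMIs and 3.16 CPM (2.28 to 4.25) in CON, 39 UMIs and 8.39 CPM (5.97 to 11.5) in HFD and 2 UMIs and 0.172 CPM in CCL4. The 3 intervals did not overlap, with ratios to CON of 2.66 (1.68 to 4.20) for HFD and 0.0545 (0.00639 to 0.209) for CCL4. T cell-like cells were at 0.788, 2.15 and 0.683 CPM, so the mitochondria-rich set was 4.00 (1.59 to 12.9) and 3.90 (1.96 to 8.45) times above background in CON and HFD. T cell-like cells themselves had a ratio of HFD to CON of 2.73 (0.874 to 10.0), which held 1 and was close to that of the mitochondria-rich set. The part of free RNA in the HFD level was not tested. In CCL4 the 2 UMIs of this set and the 3 of T cell-like cells were too few to compare. Over all hepatocyte-like cells the ratios to CON were 2.68 (1.90 to 3.81) and 0.0733 (0.0147 to 0.226). When each library was clustered on its own, which named only part of the hepatocyte-like cells of HFD, the ratio of HFD to CON was 1.86 (0.805 to 3.79).

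Gfra1, the gene of the GDNF coreceptor, had the most UMIs among the members, and its highest level among the named classes of CON was in hepatocyte-like cells. In HFD hepatocyte-like cells were at 75.8 CPM (71.7 to 80.0). Erythroid cell-like cells were close to them at 67.0 CPM from 43 UMIs, and no ratio between these classes was taken. The mitochondria-rich set had 2510 UMIs and 184 CPM (177 to 192) in CON, 530 UMIs and 114 CPM (104 to 124) in HFD, and 960 UMIs and 82.5 CPM (77.4 to 87.9) in CCL4. The level was highest in CON and lowest in CCL4, and the 3 intervals did not overlap. T cell-like cells were at 34.0, 55.1 and 36.0 CPM. In each library the mitochondria-rich set was 5.41 (4.71 to 6.24), 2.07 (1.79 to 2.40) and 2.29 (1.94 to 2.73) times above them. Alb, a hepatocyte gene, was 6.27, 2.02 and 1.78 times higher in the mitochondria-rich set than in T cell-like cells. This lay above the interval of the Gfra1 ratio in CON, within it in HFD and below it in CCL4. A UMI was found in 1076 of 1534 cells of CON (70.1%), with up to 18 in a cell, in 35.1% of the HFD cells and in 26.4% of the CCL4 cells, against 8.67%, 12.2% and 7.39% of T cell-like cells. After thinning to 1000 UMIs these shares were 16.5%, 10.6% and 7.90% against 3.45%, 5.50% and 3.52%.

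Between libraries, the ratio in the mitochondria-rich set was 0.619 (0.563 to 0.680) for HFD over CON and 0.448 (0.415 to 0.483) for CCL4 over CON. Over all hepatocyte-like cells the ratios were 0.617 (0.578 to 0.658) and 0.545 (0.512 to 0.581). The mitochondria-poor set had 62.8, 61.7 and 46.7 CPM, with ratios to CON of 0.982 (0.891 to 1.08), which held 1, and 0.744 (0.660 to 0.837). The mitochondria-rich set was 2.93 (2.72 to 3.17), 1.85 (1.65 to 2.07) and 1.77 (1.57 to 1.99) times above it in CON, HFD and CCL4. T cell-like cells had a ratio to CON of 1.62 (1.35 to 1.94) for HFD and of 1.06 (0.855 to 1.30) for CCL4. The ratio for HFD depended on which clusters carried the hepatocyte name, being 0.926 (0.843 to 1.02) when clusters were named against all other cells alone, which left the mitochondria-poor cells out of HFD but not out of CON.

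Outside hepatocyte-like cells no named class was measurably above the T cell-like level of Gfra1 in CON and HFD. In CON, 0 of 14 further named classes had a ratio interval wholly above 1, and 5 lay below (cholangiocyte-like, endothelial cell-like, monocyte/macrophage-like, myeloid progenitor-like and plasma cell-like cells). Endothelial cell-like cells of CON, with 12.1 CPM (5.55 to 23.1), and myeloid progenitor-like cells, with 10.5 CPM (7.25 to 14.8), were low, and plasma cell-like cells had 1 UMI. The T cell-like level of Gfra1 was thus not the lowest in CON. It was 2.80 times that of endothelial cell-like (1.45 to 6.22), 2.05 times that of cholangiocyte-like (1.17 to 3.91) and 3.23 times that of myeloid progenitor-like cells (2.23 to 4.81). In HFD, 0 of 14 lay above and plasma cell-like cells lay below. In CCL4, endothelial cell-like cells with 77.5 CPM (56.1 to 104) and B cell-like cells with 48.4 CPM (39.7 to 58.3) had intervals above 1, with ratios to T cell-like cells of 2.15 (1.5008 to 3.04) and 1.34 (1.04 to 1.73) and Alb ratios of 1.32 and 1.07. Over all cells outside the hepatocyte-like class Gfra1 was at 32.5, 50.2 and 45.2 CPM in CON, HFD and CCL4, with ratios to CON of 1.55 (1.40 to 1.71) and 1.39 (1.25 to 1.55), opposite in direction to those of hepatocyte-like cells. In the cholangiocyte-like and endothelial cell-like classes it was higher in HFD and CCL4 than in CON, at 16.6, 54.7 and 46.7 CPM and at 12.1, 48.3 and 77.5 CPM in CON, HFD and CCL4. The Alb of T cell-like cells was also higher in these libraries, and the part of free RNA in these values was not tested.

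Read against all genes, the share of members past 2-fold was as follows. In mitochondria-rich hepatocyte-like cells over T cell-like cells, 3 of 4 members with at least 20 UMIs over both sides were at least 2-fold higher in CON (Ntf3, Sort1 and Gfra1), where 17.1% of 12852 genes were. The count was 2 of 3 in HFD (Sort1 and Gfra1, all genes 10.5%) and 2 of 2 in CCL4 (Ntrk2 and Gfra1, all genes 13.7%). In smooth muscle cell-like over T cell-like cells of CON it was 3 of 4 (Ntf3, Ntrk3 and Sort1, all genes 16.6%). Between libraries in hepatocyte-like cells, 1 of 4 members was at least 2-fold higher in CCL4 than in CON (Ntrk2, all genes 11.2%) and 2 were at least 2-fold lower (Ntf3 and Sort1, all genes 9.05%). For HFD over CON, 1 of 3 was higher (Sort1, all genes 8.64%) and 1 was lower (Ntf3, all genes 8.56%). In the mitochondria-rich set Gfra1 passed 2-fold too, which made 3 of 4 lower in CCL4 (all genes 9.21%) beside 1 higher (Ntrk2, all genes 10.2%). For HFD over CON in that set, 1 of 3 was higher (Sort1, all genes 9.26%) and 1 was lower (Ntf3, all genes 7.06%). Ntrk2, Ntf3 and Sort1 reached 20 UMIs mainly through the library or class where they were high, with 186 Ntrk2 UMIs in hepatocyte-like cells of CCL4 against 2 in CON, so a call past 2-fold was nearly set by the filter. With 2 to 4 members counted, nothing is read from these shares about the members as a group.

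Position along the liver lobule was read from a score of pericentral against periportal genes, which split the mitochondria-rich cells of each library into 3 groups of nearly equal size. The groups also differed in depth. From periportal to pericentral the median cell had 10968, 6474 and 7311 UMIs in CON, 4394, 3143 and 3460 in HFD and 3537, 3357 and 3128 in CCL4. The part of depth in the values by group was not tested. In CON, Gfra1 was at 162 CPM (152 to 173) in the most periportal group, 177 CPM (164 to 191) in the middle and 222 CPM (208 to 237) in the most pericentral group, with a ratio of pericentral to periportal of 1.37 (1.25 to 1.504). The ratio was 1.19 (0.970 to 1.46) in HFD and 1.06 (0.903 to 1.24) in CCL4, both with intervals that held 1. Sort1 was higher at the pericentral end in CON, with 1.58, 3.06 and 5.49 CPM and a ratio of 3.48 (1.54 to 8.58), and in HFD, with 2.82, 6.48 and 16.8 CPM and a ratio of 5.94 (2.24 to 19.9). In the mitochondria-poor set of HFD, with 2.88, 5.41 and 4.53 CPM, the Sort1 ratio was 1.57 (0.729 to 3.496) and held 1. Ntf3 in CON, with 2.46, 3.57 and 3.75 CPM, had a ratio of 1.52 (0.686 to 3.41), while Ntrk2 in CCL4, with 14.9, 8.90 and 11.2 CPM, had one of 0.748 (0.490 to 1.13). In the mitochondria-poor set the ratio for Gfra1 was 1.20 (1.02 to 1.42) in CON, 1.21 (1.02 to 1.44) in HFD and 0.995 (0.779 to 1.27) in CCL4. By the periportal gene Cyp2f2 the score separated CCL4 cells less than the others. This gene was at 1024 CPM in the most pericentral group of CCL4 against 46.9 in CON and 86.6 in HFD. The pericentral gene Glul was separated in CCL4 too, at 4.97 CPM in the most periportal and 131 CPM in the most pericentral group. The same values were 62.7 and 878 CPM in CON and 99.4 and 2377 CPM in HFD. These genes thus differ on how well the score separated CCL4 cells. By cluster, Ntrk2 in CCL4 was at 28.2 CPM (15.8 to 46.5) in 129 cells of the cluster led by Cyp1a2, Slc1a2 and the pericentral gene Glul. It was at 10.9 CPM (9.04 to 13.0) in the cluster led by G6pc and Cyp2b9. The cluster led by Cyp1a2 also held 1165 HFD cells, so its leading genes mainly describe HFD. Whether its CCL4 cells were pericentral was not tested, so these clusters are not read as positions along the lobule. Why Ntrk2 differed between them was not tested.

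**Figure D4:**
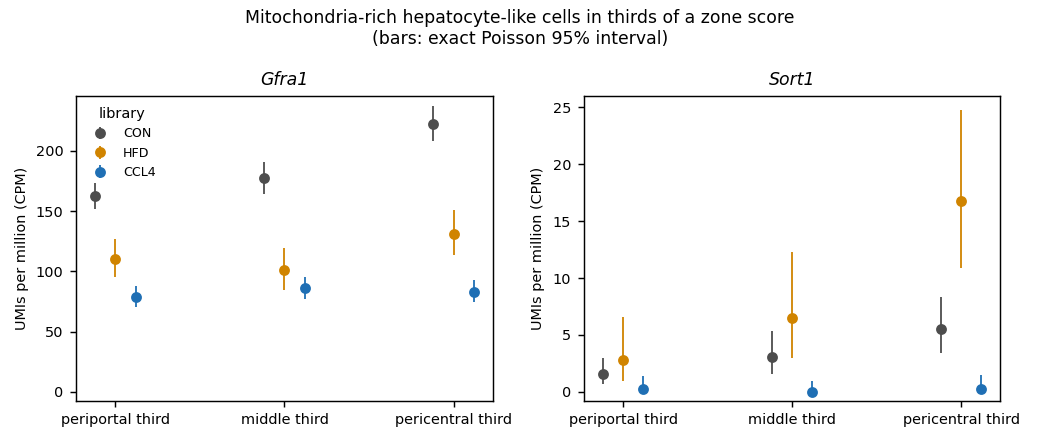
CPM of Gfra1 and Sort1 in mitochondria-rich hepatocyte-like cells split into 3 groups of nearly equal size from periportal to pericentral, for the 3 libraries, with exact Poisson 95% intervals. From the periportal to the pericentral group, Gfra1 in CON goes from 162 to 222 CPM, and Sort1 goes from 1.58 to 5.49 CPM in CON and from 2.82 to 16.8 CPM in HFD.

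Partner genes of these receptors had their highest levels outside hepatocyte-like cells. RET, the kinase that GFR alpha coreceptors activate, had 52, 5 and 6 UMIs, and 35 of the 52 in CON lay in T cell-like cells (5.52 CPM, 3.84 to 7.67). No hepatocyte-like cell of any library held Ret, so none could hold it together with Gfra1. Among all cells, 3 held both, 1 in each library. Ncam1, another partner of GFR alpha 1, had 152, 52 and 18 UMIs, with 51.3 CPM (36.3 to 70.4) in endothelial cell-like and 33.4 CPM (26.2 to 42.0) in granulocyte-like cells of CON and 55.0 CPM (35.2 to 81.9) in fibroblast-like cells of HFD. Only 1 hepatocyte-like cell, in CON, held Ncam1, and that cell also held Gfra1.

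Over all barcodes the classical factors Ntf5, Nrtn, Pspn and Cntf had 0 to 78 UMIs. Cntfr, the receptor of ciliary neurotrophic factor, had 61 UMIs, of which 25 lay in endothelial cell-like cells of HFD (25.7 CPM, 16.6 to 37.9). Sorl1, a relative of sortilin, was at 328 CPM (304 to 353) in granulocyte-like, 186 CPM (164 to 211) in monocyte/macrophage-like and 94.6 CPM (87.2 to 102) in T cell-like cells of CON, and at 2.25 CPM (1.73 to 2.89) in hepatocyte-like cells. The remaining 8 receptors of the list had 0 to 74 UMIs each.

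The wider pathway lists held 46 genes. In hepatocyte-like cells 28 had at least 20 UMIs for HFD and CON, 2 were at least 2-fold higher in HFD (Nrtn and Plcg1) and 1 lower (Pcsk5), where 8.64% and 8.56% of all genes were. For CCL4 and CON 27 had enough UMIs, 0 were higher and 3 were lower, among them Bex3 and Arhgdia, the share of all genes being 11.2% and 9.05%. Nrtn passed the filter mainly through HFD, with 15 UMIs there against 6 in CON. With 12 UMIs in CCL4 (0.586 CPM against 0.218 CPM in CON) it was left out of the count for CCL4. Both counts of higher genes thus depend on the filter for this gene. The median ratio of the lists was 1.01 for HFD and 1.05 for CCL4, beside 1.02 and 1.03 over all genes. Among the proteases that cleave the precursors, Furin was at 106, 175 and 188 CPM in the mitochondria-rich set, with ratios to CON of 1.65 (1.51 to 1.80) and 1.77 (1.65 to 1.89), and Pcsk5 was at 20.5, 9.46 and 13.7 CPM. Plg, which encodes plasminogen, had ratios to CON of 1.01 (0.978 to 1.04) and 1.12 (1.10 to 1.15) in that set. Over all hepatocyte-like cells the Plg ratios were 1.06 (1.04 to 1.08) and 1.39 (1.36 to 1.41).

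Among p75 and Trk adaptors, 9 of 11 were measured in hepatocyte-like cells. Plcg1, a phospholipase recruited by Trk receptors, was at 8.95, 18.5 and 7.82 CPM in the mitochondria-rich set, with a ratio of HFD to CON of 2.07 (1.55 to 2.75). Arhgdia, a small GTPase inhibitor, was at 34.9, 32.5 and 13.0 CPM, with a ratio of CCL4 to CON of 0.372 (0.308 to 0.448). All 12 genes of the sortilin route and of lipoprotein handling were measured. The retromer gene Vps35 was at 79.9, 75.3 and 75.3 CPM and Mttp, which loads lipid onto lipoproteins, at 159, 153 and 156 CPM, with ratios to CON whose intervals held 1. Apob was at 2597, 1679 and 2309 CPM, with ratios to CON of 0.647 (0.631 to 0.663) and 0.889 (0.875 to 0.903). These values are for the mitochondria-rich set. Over all hepatocyte-like cells the Apob ratios were 0.712 (0.700 to 0.725) and 1.11 (1.10 to 1.13), the latter opposite in direction. The Mttp ratios were 0.927 (0.868 to 0.989) and 1.21 (1.14 to 1.28) there, with intervals that excluded 1.

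The genes whose levels were ordered most like each member over 40 sums of a class and a library, among 13926 genes with at least 100 UMIs, are given as a description, since these sums share libraries and free RNA. For Gfra1 they included Sc5d, an enzyme of cholesterol synthesis (Spearman correlation 0.932), Serpina3k (0.910), Rapgef4 (0.907) and Pank1 (0.901). For Ntrk2 they included Sdc2 (0.799), Errfi1 (0.765), C1s1 (0.741) and mt-Nd6 (0.734). For Sort1 they were Mitf (0.816), Ldhb (0.801), Id1 (0.774), Timp2 (0.768) and Capns1 (0.759). For Ntrk3 they were Cpne7 (0.787), Zfp831 (0.785), Phactr3 (0.784), Scml4 (0.776) and Klra9 (0.769), and for Ntf3 Lrrc32 (0.780), Col1a2 (0.696), Metap1 (0.693), Tmem47 (0.689) and Lum (0.687).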

How the data were processed

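The matrices that the authors deposited hold UMI counts of each gene in each barcode with no normalization, made with Cell Ranger 7.2.0 per the file headers and labels. The paper names mm10 and the submitters' processing notes name GRCm39. Of 55357 gene identifiers, 52081 are in GENCODE M21 (GRCm38), used for positions, and 3276 are not. Whether counting used strand and introns is not given in the sources used here.

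Cells needed 500 UMIs, 200 genes and a mitochondrial share of at most 30%, and 39 barcodes failed, all by mitochondrial share. Scrublet, with an expected rate of 8%, marked 5 barcodes, too few for a working call, so most doublets are still included. The libraries were clustered together with no batch correction (scanpy 1.11.5, 2000 variable genes without the members and pathway genes, 30 principal components, 15 neighbours, Leiden resolution 1.0). A marker was taken as raised when at least 10% of a cluster's cells had it and its level was at least 1.5 times that of other cells. A class named a cluster with at least 3 markers among the 10 genes leading by fold, and otherwise when it had the largest share of its markers raised, at least 3. A cluster left without a name was compared again with cells of its leading library. This rule was set after the clusters had been seen. Groups came from the sample labels. The members and lists were chosen with earlier results of these data known.

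UMIs were summed per class and library, with exact Poisson, Clopper-Pearson and conditional 95% intervals (scipy 1.17.1), for counting error alone. The upper limit for a 0 was set at 3 counts. Thinned shares are exact expected values at 1000 UMIs. Comparisons with fewer than 10 UMIs over both sides were not made. All 8 members are named, as are up to 4 genes per pathway list with at least 20 UMIs in a class of a library, and the 5 genes most like each member with at least 50 UMIs. Some genes that this rule names are not reported here. Nrtn and the list members with lower counts are named outside this rule, after their values were seen. The scripts were tested on simulated data. Alternatives covered clustering, naming, doublets, scaling, thinning and fold limits.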

Additional observations from a re-analysis of the deposited data

Results flagged for a closer look

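The cells left without a class name entered no comparison between classes, though they are part of the sums outside hepatocyte-like cells. In them Gfra1 lay above the T cell-like level of the same library in CON, HFD and CCL4, and Sort1 did so in HFD. Gfra1 was at 321 CPM (250 to 406) in CON, from 69 UMIs in 68 cells of the cluster led by Gm38070 and Egfros, 9.42 times the T cell-like level (7.08 to 12.4). In the other unnamed cluster, led by Egfros and Gm43189, it was at 92.1 CPM (63.0 to 130) in HFD, from 32 UMIs in 116 cells, and at 75.6 CPM (63.1 to 90.0) in CCL4, from 127 UMIs in 664 cells, with ratios of 1.67 (1.12 to 2.41) and 2.10 (1.65 to 2.67). Sort1 was at 14.4 CPM (4.67 to 33.6) in the HFD cells of that cluster, from 5 UMIs, 6.70 times the T cell-like level (1.82 to 20.9). Malat1 was at 70893 CPM in the CON cells, 44970 CPM in the HFD cells and 57209 CPM in the CCL4 cells. Most of the leading genes were predicted genes.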

How the results depend on the processing

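No paired analysis was possible because there was 1 library per condition. All values rest on counting error alone and on clusters that mostly came from 1 library. Depth limits Gdnf to a location, and Ngfr and Artn to a location and ratios over all cells. Over the main results and alternatives, 198 of 224 values stayed within the 95% interval of the reported value (counts of genes within 1.5 times), 26 moved outside it, and 0 of those whose interval excluded 1 changed direction. Of the other values, 194 of 228 stayed and 34 moved. The causes of these moves were not tested.

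With only the mitochondria-rich hepatocyte-like clusters, Gfra1 over T cell-like cells was 5.41 (CON), 2.07 (HFD) and 2.29 (CCL4), Gfra1 of CCL4 over CON was 0.448, and Ntf3 of HFD over CON was 0. Without mitochondrial and the 20 most abundant genes in the CPM, Gfra1 over T cell-like cells was 4.33 in CON and its ratio of CCL4 to CON was 0.582. With each library clustered on its own, which named 1 cluster of 577 cells in HFD and 1 of 646 cells in CCL4 as hepatocyte-like against 5 clusters in CON, Gfra1 over T cell-like cells was 1.88 (HFD) and 2.51 (CCL4), its ratios to CON were 0.871 (HFD) and 0.737 (CCL4), Ntrk2 of CCL4 over HFD was 10.9, Sort1 of HFD over CON was 1.86 in hepatocyte-like and, in monocyte/macrophage-like cells, 2.01 (0.664 to 9.96) where the reported 0.742 (0.490 to 1.15) lay below 1, both with intervals that held 1, and Ntf3 of HFD over CON was 0.

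Naming clusters against all other cells only was an alternative chosen after seeing the data. It gave 2.06 for Gfra1 over T cell-like cells in HFD, 0.926 for Gfra1, 4.19 for Sort1 and 0 for Ntf3 of HFD over CON, and 14.1 for Ntrk2 of CCL4 over HFD. Without the 8% of cells with the highest doublet scores, Gfra1 in HFD was 1.18 over T cell-like cells and 0.561 over CON. The latter was 0.566 at a mitochondrial limit of 20% and 0.563 with 4000 variable genes. At 1.5-fold in place of 2-fold, 5 (HFD) and 10 (CCL4) pathway genes were past the fold against CON in place of 3 and 3.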
